A study of Rattus norvegicus with 4 samples.

Results

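The response of MMQ cells to 24 h of UNC9994 is described here from 2 RNA-seq libraries, 1 of cells given UNC9994 at 15 µM and 1 of cells given its vehicle DMSO. MMQ is a rat pituitary tumour line that secretes prolactin, grown in medium with 2.5% fetal bovine serum and 15% horse serum. The members were all gene IDs with at least 1 FPKM (reads relative to gene model length and library size, as computed by the authors) in either 24 h library, 13308 of the 33832 IDs in the table. Of the remaining IDs, 14806 were listed at 0 in both 24 h libraries and 5718 lay above 0 but under 1 FPKM. The members comprised 12558 Ensembl IDs and 750 IDs without an Ensembl number. A second pair of libraries, UNC9994 at 15 µM and DMSO at 12 h, is used only for comparison. Each of the 4 combinations of drug and time was 1 library of this single cell line, so the 24 h difference has no replicate and carries no p-value. A difference between the treatments cannot be told apart from a difference between these cultures or libraries.

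The dopamine D2 receptor is a G protein-coupled receptor through which hypothalamic dopamine restrains lactotrophs, the prolactin cells of the pituitary. It signals through inhibitory G proteins, which lower cyclic AMP, and through beta-arrestins, which act on the kinases Akt and Gsk3. UNC9994 is a ligand of this receptor that favours the beta-arrestin branch. The study asked what exposure to this ligand does to the transcriptome of lactotroph-derived tumour cells. The IDs come without gene names, and the gene table at hand matched 0 of them. Prolactin, the D2 receptor, the markers of lactotrophs and of other cell types and the pathway lists are therefore not analysed here, and the labelled cell type could not be checked against its markers. The response is described instead by its size, its direction, the abundance and length of the gene models it touched, and how each part of it stood in the 12 h libraries.

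The deposited FPKM gave back whole read numbers, 17433867 for DMSO and 21188668 for UNC9994 at 24 h, against 19933310 and 21728374 at 12 h. The DMSO 24 h library was the shallowest of the 4. At least 10 reads were found for 13639 IDs in DMSO and for 13982 IDs in UNC9994 at 24 h.

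Most transcripts differed little after 24 h of UNC9994. The ratio was taken as log2 of UNC9994 over DMSO after adding 0.5 to each FPKM, which understates the differences of scarce IDs. Its median over the 13308 members was -0.0038, the 25th and 75th percentiles were -0.20 and 0.20, and the 5th and 95th were -0.78 and 0.71. A difference under 1.2-fold was seen for 8013 members (60.2%). At 1.5-fold or more, 918 were higher (6.90%) and 1011 lower (7.60%). At 2-fold or more, 320 were higher (2.40% of the members) and 434 lower (3.26%). At 4-fold or more, 63 were higher (0.473%) and 72 lower (0.541%). The central mass was thus nearly symmetric, and among the 2-fold differences 42.4% were higher with UNC9994.

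**Figure D1:**
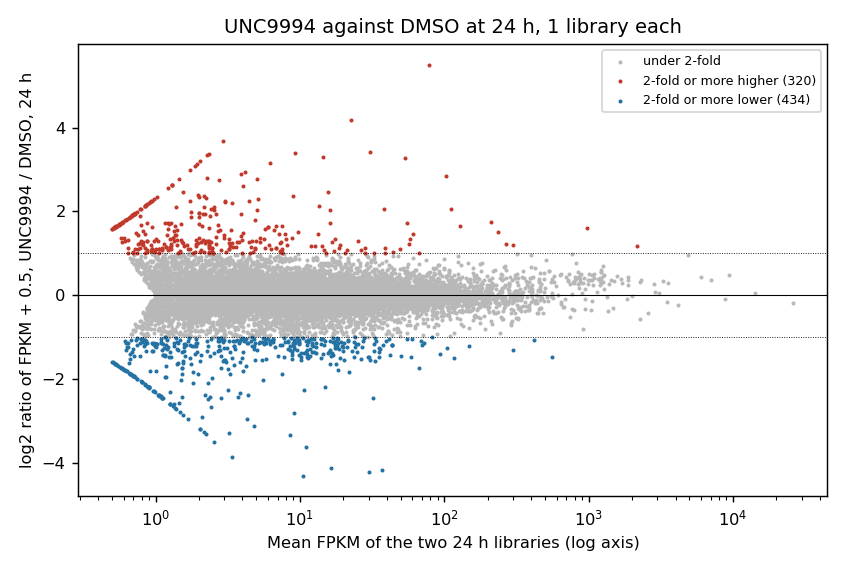
Each point is 1 gene ID, placed by its mean FPKM in the 24 h libraries (log axis) and its log2 ratio of UNC9994 over DMSO at 24 h. Red points mark the 320 IDs past 2-fold on the higher side and blue points the 434 on the lower side, and the straight edges at the left are IDs listed at 0 in 1 of the libraries.

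Many of these 2-fold differences rested on few reads. Of the 320 higher IDs, 187 had under 1 FPKM in DMSO at 24 h, so that they were members only through the UNC9994 library. Their DMSO library held 0 reads for 60 of the 320 and 1 to 3 reads for another 74. Of the 434 lower IDs, 193 had under 1 FPKM in UNC9994, and the UNC9994 library held 0 reads for 70 and 1 to 3 for 79. The 95% counting interval of the ratio (exact binomial, counting error only) lay above 1 for 208 of the higher IDs and below 1 for 303 of the lower. It lay wholly beyond 2-fold for 102 higher and 176 lower IDs. A mean of 50 reads or more in the 24 h pair left 114 higher and 221 lower IDs, so that 34.0% of these better covered differences were higher. At the edge of the filter, the last ID taken in had a highest value of 1.0002 FPKM and the first left out 0.9995 FPKM. Between 1 and 1.1 FPKM, 17 of 169 IDs were 2-fold higher and 13 lower, and between 0.9 and 1 FPKM 19 of 201 were higher and 19 lower.

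The difference between the 24 h libraries was set beside pairs of libraries that share a treatment. With the same filter and fold, 455 of 13144 IDs (3.46%) differed between DMSO at 24 h and DMSO at 12 h, and 458 of 13285 (3.45%) between the UNC9994 libraries, against 754 of 13308 (5.67%) for UNC9994 against DMSO at 24 h. These pairs each share a library with the 24 h comparison. The SD of the log2 ratio was 0.51 for the drug at 24 h, 0.43 for time in DMSO and 0.43 for time in UNC9994. The interquartile range, which ignores the extremes, was 0.40 for the drug at 24 h against 0.27 in both time pairs. The drug pair at 12 h, which shares no library with that at 24 h, was the widest, with an SD of 0.56, an interquartile range of 0.46 and 950 IDs past 2-fold (7.15%). None of these differences in spread could be tested with 1 library per combination.

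The response was then divided by abundance, the mean FPKM of the 24 h pair. Among the 1744 scarcest members, under 2 FPKM, 158 were 2-fold higher and 173 lower, 19.0% in all. This class had a median of 30.5 reads, and 16.2% of its counterpart differed 2-fold between the DMSO libraries, so its share was near that of a pair without a difference in drug. Among the 4234 IDs of 2 to 10 FPKM, 116 were higher and 137 lower (5.98%, against 3.45% between the DMSO libraries). Among the 5503 IDs of 10 to 50 FPKM, 30 were higher and 108 lower (2.51%, against 0.494%). Here the lower IDs were the larger group, 1.96% of the class against 0.545% higher.

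At higher abundance, 2-fold differences were rare and of both directions. In the class of 50 to 200 FPKM, 10 of 1472 IDs were higher and 13 lower (1.56%, against 0.334% between the DMSO libraries). In the class of 200 FPKM or more, 6 of 355 were higher and 3 lower (2.54%, against 1.63%). Counting error is small in these classes, with a median SD of 0.067 on the log2 scale at 10 to 50 FPKM and 0.021 at 200 FPKM or more. The observed SD of the 24 h drug ratio was 0.37 and 0.39 in these classes, and that of the DMSO pair 0.26 and 0.25. The spread of both pairs thus exceeded counting error.

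**Figure D2:**
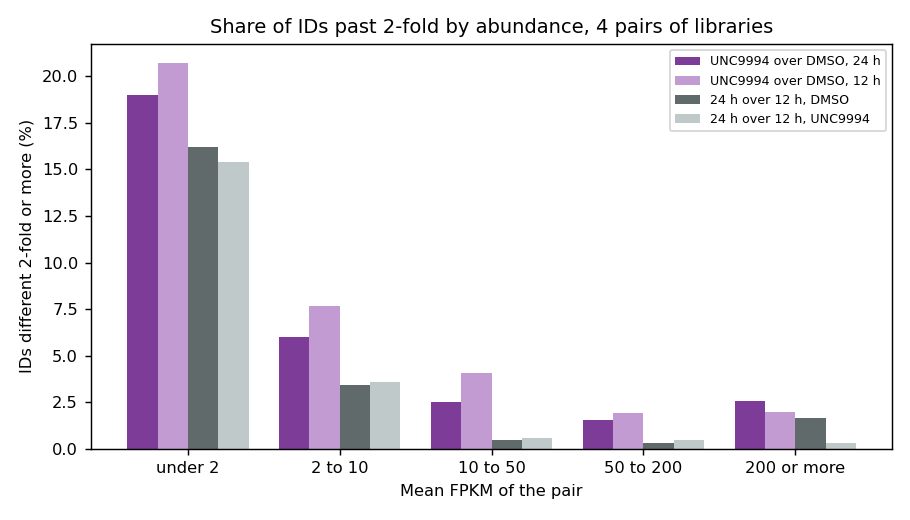
Bars give the percentage of gene IDs that differ 2-fold or more, by the mean FPKM of the pair, for UNC9994 against DMSO at 24 h and 12 h and for 24 h against 12 h within each treatment, 1 library a side. Under 2 FPKM the 4 pairs lie between 15.4% and 20.7%, while at 10 to 50 FPKM the drug pairs stand at 2.51% and 4.09% and the time pairs at 0.494% and 0.590%.

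Few of the most abundant transcripts differed 2-fold, but smaller differences were common among them. The 355 members of 200 FPKM or more held 48.2% of the FPKM sum in DMSO and 50.7% in UNC9994 at 24 h. Their median log2 ratio was 0.071. Of them, 120 stood above vehicle by 1.2-fold or more, 59 below it by as much and 176 closer than that. Over all members, 60.2% lay within 1.2-fold. The interquartile range in this class was 0.49, against 0.31 at 10 to 50 FPKM and 0.28 at 50 to 200 FPKM. Between the DMSO libraries it was 0.14 for IDs of 200 FPKM or more. At 12 h, 278 of the 355 had a ratio of the same sign, a count that was not taken over all members. The lean to the higher side was not seen at 12 h. In the 12 h pair, IDs of 200 FPKM or more had a median log2 ratio of -0.068. At 1.5-fold, 9 were higher and 22 lower in that pair, against 20 and 10 in the 24 h pair. Among the 20 most abundant IDs, 10 were above vehicle by 1.2-fold or more and 2 below it by as much, with log2 ratios from -0.58 to 1.17. The most abundant ID of all stood at 27927 FPKM in DMSO and 24535 in UNC9994 at 24 h, and at 27721 and 21469 FPKM at 12 h. Its level with UNC9994 was 0.879 times that with DMSO at 24 h (95% counting interval 0.875 to 0.882) and 0.774 times at 12 h. Both UNC9994 libraries were below both DMSO libraries, which differed from each other by a factor of 1.01.

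The 9 members of 200 FPKM or more that differed 2-fold show several patterns, and are given here by their rank in abundance. The ID of rank 150 stood at 575 and 563 FPKM in DMSO at 12 h and 24 h and at 262 and 270 FPKM in UNC9994. Rank 234 stood at 99.5 and 182 FPKM in DMSO and at 456 and 416 FPKM in UNC9994. In both, the drug libraries lay close together and apart from the vehicle libraries at either time.

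In other abundant IDs the vehicle libraries differed from each other. Rank 60 stood at 1282 and 481 FPKM in DMSO at 12 h and 24 h and at 1116 and 1471 FPKM in UNC9994, so that only its DMSO 24 h library was low. Rank 106 stood at 244 and 825 FPKM in DMSO and at 479 and 299 FPKM in UNC9994, with the DMSO 24 h library high. Rank 333, an ID without an Ensembl number, stood at 425 and 96.2 FPKM in DMSO and at 53.5 and 325 FPKM in UNC9994, which made it lower with the drug at 12 h and higher at 24 h. In these 3 IDs the vehicle libraries differed from each other by more than 2-fold, and the 24 h ratio depended on which vehicle library it was taken against.

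The 2-fold IDs held a small part of the transcript pool. The 320 higher IDs took 0.601% of the FPKM sum in DMSO and 1.59% in UNC9994 at 24 h, and the 434 lower IDs took 1.41% and 0.512%. In the 12 h libraries, which did not choose them, the higher IDs took 0.927% in DMSO and 1.34% in UNC9994, and the lower IDs 1.17% and 0.651%. Of the summed gain in FPKM of the higher IDs, 70.5% came from 10 IDs and 28.5% from a single one. For the lower IDs, 34.3% of the summed loss came from 10 IDs and 10.8% from a single one. The single higher ID was that of rank 19, at 1610 and 1340 FPKM in DMSO and 2509 and 3018 FPKM in UNC9994 at 12 h and 24 h. Its recovered gene model was 165 bases long. Between these 2 libraries the gain was thus concentrated in fewer IDs than the loss. Both sums include IDs whose vehicle libraries differed by more than 2-fold, such as rank 60 among the higher and rank 106 among the lower.

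The Ensembl IDs with the largest 24 h ratios were taken among the 9524 with at least 5 FPKM in either 24 h library, 2 in each direction. ENSRNOG00000040005 led the higher side. It stood at 4.22 FPKM in DMSO and 3.51 FPKM in UNC9994 at 12 h, and at 2.91 FPKM in DMSO and 154 FPKM in UNC9994 at 24 h, from 18, 17, 11 and 706 reads. Its fold at 24 h was 53.1 (95% counting interval 29.5 to 107), a log2 ratio of 5.51, against a fold of 0.832 at 12 h (0.403 to 1.71). The high level was seen in the UNC9994 24 h library alone. The recovered gene model was 213 bases long.

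ENSRNOG00000047225 was next. It stood at 13.5 FPKM in DMSO and 58.0 FPKM in UNC9994 at 12 h, and at 1.92 FPKM and 43.1 FPKM at 24 h. The 24 h fold was 22.5 (14.1 to 38.2), against a 12 h fold of 4.29 (3.58 to 5.17). Both UNC9994 libraries lay above both DMSO libraries. The level with UNC9994 was 1.35-fold lower at 24 h than at 12 h, and the level with DMSO 7.05-fold lower, so that the larger ratio at 24 h went with a lower vehicle value. Against DMSO at 12 h its log2 ratio at 24 h was 1.64 in place of 4.17.

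ENSRNOG00000045747 led the lower side among these IDs. It stood at 5.28 FPKM in DMSO and 4.53 FPKM in UNC9994 at 12 h, and at 57.7 FPKM in DMSO and 2.62 FPKM in UNC9994 at 24 h. It was 22.04-fold lower with UNC9994 at 24 h (16.1 to 31.0), a log2 ratio of -4.22, and its fold at 12 h was 0.858 (0.616 to 1.19). The DMSO 24 h library alone was high, 10.9-fold above DMSO at 12 h (8.64 to 14.0). Against DMSO at 12 h its log2 ratio was -0.89.

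ENSRNOG00000016444 was the next lower ID. It stood at 67.8 FPKM in DMSO and 77.4 FPKM in UNC9994 at 12 h, and at 70.7 FPKM in DMSO and 3.43 FPKM in UNC9994 at 24 h, from 627, 813, 580 and 34 reads. It was 20.6-fold lower with UNC9994 at 24 h (14.6 to 30.1), while its fold at 12 h was 1.14 (1.03 to 1.27). The low level was seen in the UNC9994 24 h library alone. The last 3 gene models were 528, 729 and 462 bases long, against a median of 2146 bases for the 9524 IDs.

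**Figure D3:**
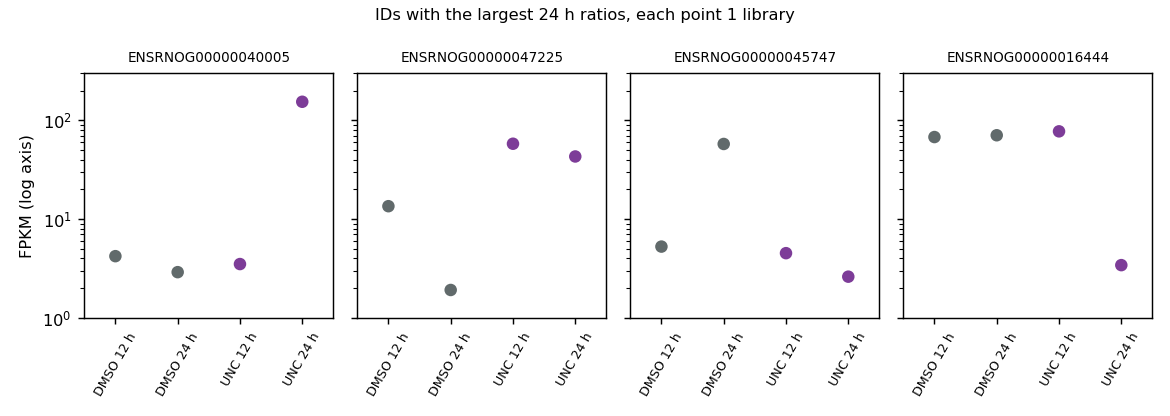
Points give the FPKM (log axis) of the 4 printed gene IDs in each library, DMSO in grey and UNC9994 in purple, with 1 library per point. For ENSRNOG00000040005, ENSRNOG00000045747 and ENSRNOG00000016444 a single 24 h library stands apart, and for ENSRNOG00000047225 both UNC9994 libraries lie above both DMSO libraries.

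The next leaders were sorted in the same way, first by whether they were shared with 12 h. Among the 20 highest of these 9524 IDs, with log2 ratios of 2.20 or more, 5 were also 2-fold higher at 12 h. Of all 13308 members, 2.47% were 2-fold higher and 3.70% lower at 12 h. Of the rest of the 20 highest, the UNC9994 24 h library alone was 2-fold or more from each of the remaining libraries in 5. The DMSO 24 h library stood alone in 4. Among the 20 lowest, 7 were also 2-fold lower at 12 h, and of the rest the UNC9994 24 h library stood alone in 6 and the DMSO 24 h library in 6. Both UNC9994 libraries lay above both DMSO libraries for 7 of the 20 highest and below for 16 of the 20 lowest. Over all members these shares were 28.2% and 30.3%, and the choice at 24 h sets this order in part. Gene models under 1000 bases made up 10 of the 20 highest and 12 of the 20 lowest, against 16.7% of the 9524 IDs. The least covered leader had 4 reads on average among the highest and 3 among the lowest.

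The whole set of 754 IDs was sorted in the same way by the libraries that carried the 24 h difference. Of these, 276 (36.6%) were 2-fold different in the same direction at 12 h. The next counts are of IDs not shared with 12 h in this way, and so leave out shared IDs in which 1 library also stood apart, such as ENSRNOG00000047225. In 83 (11%) the UNC9994 24 h library alone stood 2-fold or more from each of the other 3, in 107 (14.2%) the DMSO 24 h library alone, and in 5 both did. The remaining 283 (37.5%) fitted none of these descriptions. Counted in the same way at 4-fold or more, UNC9994 at 24 h stood alone in 32 of 135 (23.7%) and DMSO at 24 h in 36 (26.7%). From 2-fold to under 4-fold these shares were 8.24% and 11.5% of 619. The share with a 2-fold difference of the same direction at 12 h was 32.6% at 4-fold or more and 37.5% below it, a difference that was not tested.

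Standing alone was not particular to the 24 h libraries. Over the 13701 IDs with at least 1 FPKM in any library, DMSO at 12 h stood alone for 57 higher and 64 lower IDs, DMSO at 24 h for 80 and 55, UNC9994 at 12 h for 79 and 64, and UNC9994 at 24 h for 61 and 49. At 50 reads or more on average these numbers were between 9 and 21 for every library and direction. They were lowest for UNC9994 at 24 h, with 9 higher and 10 lower, and highest for UNC9994 at 12 h, with 18 and 21. Each of the 4 libraries thus held such IDs, though not in equal number.

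The share of 24 h differences also seen at 12 h went with gene model length. Lengths are those of the shortest model that turned the FPKM into whole reads, and IDs above 0 in 1 library only are left out. Among the 1555 members under 500 bases, 161 were 2-fold higher and 171 lower (21.4%), with a median of 14.5 reads, and 17.7% differed 2-fold between the DMSO libraries. Only 83 of these 332 IDs (25%) were 2-fold different in the same direction at 12 h. Among the 4446 members of 2000 to under 4000 bases, 42 were higher and 89 lower (2.95%, against 0.697% between the DMSO libraries), and 72 of the 131 (55.0%) were shared with 12 h. Among the 2355 members of 4000 bases or more, 7 were higher and 47 lower (2.29%, against 0.170%), and 35 of the 54 (64.8%) were shared. In this longest class neither 24 h library stood alone for any of the 19 IDs that were not shared. Of all members, 2.47% were 2-fold higher and 3.70% lower at 12 h, and these shares were not counted by length class. Coverage moves with length here, and the part of each in the result was not tested.

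**Figure D4:**
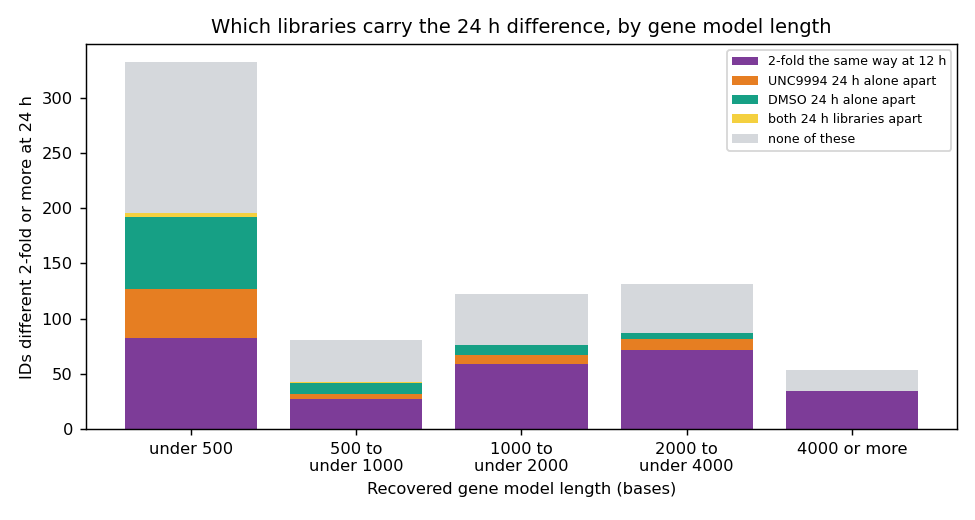
Stacked bars count the gene IDs that differ 2-fold or more at 24 h, by recovered gene model length, and divide them by the libraries that carry the difference, with IDs shared with 12 h counted first. Of 332 IDs under 500 bases 83 are shared with 12 h, and of 54 IDs of 4000 bases or more 35 are.

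The 12 h pair, whose libraries played no part in choosing the 24 h IDs, was then read for all of them. Of the 320 higher IDs, 222 had a ratio above 0 at 12 h (69.4%, against 48.3% of all members) and 102 were 2-fold higher (31.9%, against 2.47%). Of the 434 lower IDs, 308 had a ratio below 0 at 12 h (71.0%, against 51.3%) and 174 were 2-fold lower (40.1%, against 3.70%). The 12 h ratio thus had the sign of the 24 h ratio for most IDs of either side. Over all 4 libraries, both UNC9994 libraries lay above both DMSO libraries for 210 of the higher IDs (65.6%, against 28.2% of all members) and below for 297 of the lower IDs (68.4%, against 30.3%). This order is in part set by the choice of the IDs at 24 h, so its excess over all members is not a result.

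The lower IDs with good coverage were mostly shared with 12 h. With 50 reads or more on average, 136 of 221 lower IDs (61.5%, against 3.10% of the 11409 members so covered) were 2-fold lower at 12 h as well, and 47 of 114 higher IDs (41.2%, against 1.23%) were 2-fold higher. In the order of all 4 libraries, which the choice at 24 h again sets in part, both UNC9994 libraries lay below both DMSO libraries for 198 of the 221 (89.6%, against 32.3%) and above for 88 of the 114 (77.2%, against 28.4%). The median log2 ratio of these lower IDs was -1.21 at 24 h and -1.13 at 12 h, and that of the higher IDs 1.30 and 0.87. Their vehicle levels differed little between the times for the lower IDs, with a median log2 ratio of 0.014 for DMSO at 24 h over 12 h, and more for the higher IDs, with -0.20. A vehicle shift of this sign is favoured by the choice of IDs on the DMSO 24 h library.

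**Figure D5:**
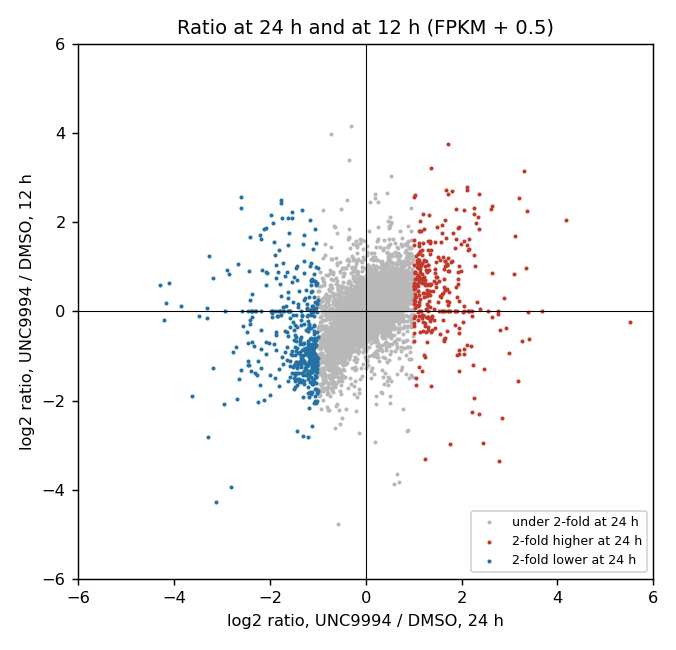
Each point is 1 gene ID, placed by its log2 ratio of UNC9994 over DMSO at 24 h (horizontal) and at 12 h (vertical), pairs that share no library. Of the 434 IDs that are 2-fold lower at 24 h (blue) 308 lie below 0 at 12 h, and of the 320 that are 2-fold higher (red) 222 lie above 0.

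The IDs that were 2-fold different in the same direction at both times were then described by their levels. This cut leaves out IDs with a smaller 12 h difference of the same sign. The 136 lower ones with at least 50 reads had median levels of 20.9 and 20.1 FPKM in DMSO at 12 h and 24 h and of 7.74 and 8.22 FPKM in UNC9994. Their distance from vehicle was larger at 12 h for 87 of the 136. The 47 higher ones had median levels of 2.50 and 2.64 FPKM in DMSO and of 9.31 and 10.1 FPKM in UNC9994, with the larger distance at 12 h for 27. In DMSO the lower set was the more abundant, while in UNC9994 the medians of the sets lay close together. Both sets were chosen on these same libraries, which favours high DMSO levels in the lower set and low ones in the higher set. This contrast is therefore not a result. The median gene model was 2493 bases in the lower set and 1846 bases in the higher set. Taken from the other side, 472 members that also reached 1 FPKM in the 12 h pair were 2-fold lower at 12 h. Of these, 165 were also 2-fold lower at 24 h and 33 lay within 1.2-fold. Of the 307 such members that were 2-fold higher at 12 h, 92 were also 2-fold higher at 24 h and 41 lay within 1.2-fold. Of all members, 3.26% were 2-fold lower at 24 h, 2.40% were 2-fold higher and 60.2% lay within 1.2-fold.

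Part of the 24 h difference was not seen at 12 h. Of the 320 higher IDs, 71 differed by less than 1.2-fold at 12 h, as did 74 of the 434 lower IDs. With at least 50 reads these numbers were 17 of 114 and 11 of 221. The share of all members this close at 12 h was not counted. The counts include IDs in which the DMSO 24 h library alone stood apart, such as ENSRNOG00000045747, so they are not counts of a late drug response. Whether the response differed between the times for any of these IDs could not be tested, because the 4 libraries leave no residual degree of freedom for it.

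IDs without an Ensembl number leaned to the higher side. Of the 750, 34 were 2-fold higher and 20 lower (4.53% and 2.67%), against 286 and 414 of the 12558 Ensembl IDs (2.28% and 3.30%). At 1.5-fold, 121 were higher and 49 lower. Their median log2 ratio was 0.14, against -0.0090 for Ensembl IDs, and 62.5% were above 0, against 48.6%. In the 12 h drug pair 65.1% of the 750 were above 0, against 47.3% of Ensembl IDs, and their median log2 ratio was 0.16. Among their 2-fold IDs, both UNC9994 libraries lay above both DMSO libraries for 26 of the 34 and below for 11 of the 20. For Ensembl IDs these numbers were 184 of 286 and 286 of 414. Over all members the shares were 28.2% and 30.3%, and the choice at 24 h sets this order in part. These IDs were also above 0 for 64.7% in DMSO at 24 h over 12 h and for 57.7% in UNC9994 at 24 h over 12 h, pairs without a difference in drug. They were scarcer than Ensembl IDs, with a median of 2.85 against 12.9 FPKM, and held 1.12% of the FPKM sum in DMSO and 1.22% in UNC9994.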

How the data were processed

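RNA of 4 MMQ libraries was poly(A)-selected, reverse-transcribed with random hexamers and fragmented as cDNA, per the labels' protocols. The submitters' processing notes name HTSeq, Bowtie2, TopHat2 (version 2.0.7) and CASAVA, and the build Rnor_6.0, with no roles. The deposited values are FPKM, per the file headers, although the series table is named as raw counts. No source used here gives the strand setting or the annotation release, so overlapping or near-identical genes may share reads.

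Of 35042 rows, 1209 exact repeats and 1 truncated ID, all listed at 0, were removed. Ratios were log2(FPKM + 0.5), with at least 1 FPKM in either library and a 2-fold threshold (Python 3.11.15, pandas 2.3.3, scipy 1.17.1). The design had foreseen gene symbols, and its gene lists and the longer naming rule could not be applied. Under its rule for unnamed IDs, the 2 highest and 2 lowest Ensembl IDs with at least 5 FPKM are printed.

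Reads were recovered as whole numbers within 0.001 reads plus 1e-08 of the value. The divisor of each library came from the spacing of its lowest values, and each gene model length is the shortest of at least 40 bases that made all 4 read numbers whole. This succeeded for each of the 16009 IDs above 0 throughout, and a common factor cannot be seen for single IDs. The steps were tested on simulated data. Intervals cover counting error only, and reads without molecular identifiers are not independent molecules. The members and settings were chosen with earlier results of these data known.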

Additional observations from a re-analysis of the deposited data

Results flagged for a closer look

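Some IDs differed in opposite directions at the 2 times. For 18 IDs the UNC9994 level was above vehicle by 2-fold or more at 24 h but below it by 2-fold or more at 12 h. They made up 5.62% of the 320 higher IDs, and 3.70% of all members were 2-fold lower at 12 h. For 35 IDs it was below vehicle by that much at 24 h but above it at 12 h. They made up 8.06% of the 434 lower IDs, and 2.47% of all members were 2-fold higher at 12 h. No test of the difference between the times was possible with 1 library per combination. These 53 IDs had a median of 4 reads in the 24 h pair, 41 had gene models under 1000 bases and 14 had a mean of at least 50 reads.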

How the results depend on the processing

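Of 70 alternative values of the counts and shares, 47 lay within a factor of 1.5 of the reported count or inside the interval of the reported share. The 754 IDs past 2-fold (320 higher, 434 lower) became 323 (105 and 218) with at least 5 FPKM in either library, 335 (114 and 221) with a mean of at least 50 reads, and 307 (105 and 202) with gene models of at least 1000 bases. They became 1929 (918 and 1011) at 1.5-fold and 135 (63 and 72) at 4-fold. Higher IDs were 42.4% of the total as reported, 32.5%, 34.0% and 34.2% under those filters, and 49.5% with DMSO at 12 h as the control. The 331 IDs under 2 FPKM became 523 with a pseudocount of 0.1 and 192 with 1. The share of higher IDs whose treatments do not overlap went from 65.6% to 75.2% at 5 FPKM, 77.2% at 50 reads and 78.1% at 1000 bases, and that of lower IDs from 68.4% to 88.1%, 89.6% and 91.1%. Over all members these shares were 28.2% and 30.3%, and over those of 50 reads 28.4% and 32.3%. They were not taken over all members at 5 FPKM or 1000 bases. The choice of IDs at 24 h sets this order in part. Median-of-ratios scaling and total-read scaling moved the median log2 ratio from -0.0038 to 0.0029 and -0.011. The length limit, the classes by 12 h level and the last 2 alternatives for the shares were chosen after seeing the data. No paired analysis was possible because the 24 h contrast has 1 library a side. A fit over both times, with time as the block, would test a change common to both. Depth limits the IDs under 2 FPKM, with a median of 30.5 reads, and those under 500 bases, with 14.5.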
